A study of Mus musculus with 8 samples.

Results

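The miR-15/16 family, with the miR-195 and miR-497 cluster, was followed in mouse bone tissue and in a differentiating pre-osteoblast line through 6 mature miRNAs of 1281 in the deposited tables. They were mmu-miR-15a-5p, mmu-miR-15b-5p, mmu-miR-16-5p, mmu-miR-195a-5p, mmu-miR-195a-3p and mmu-miR-497a-5p, chosen by name, and 5 of them are guide arms, the strand of a hairpin that is usually kept. Of 1418 entries (a mature arm with its precursor) 7 belonged to them, because miR-16-5p comes from a pair of hairpins whose entries were summed. Small RNA libraries came from 3 calvaria samples and from MC3T3 E1 sc4 cells at 5 time points. The calvaria, the parietal and frontal bones of the skull vault, were taken from Prrx1-Cre+ female C57BL/6 mice aged 2 to 3 days, after brief digestion with collagenase and trypsin. Prrx1-Cre is a Cre recombinase driver active in skeletal mesenchyme, and no floxed allele is named for these mice. MC3T3 E1 sc4 is a subclone, hence 1 clone, of a line derived from mouse calvaria, used here at passage 10 to 15. The cells were harvested undifferentiated at day 0 and at days 6, 10, 17 and 24 of culture with ascorbic acid and β-glycerol phosphate. RNA of 3 cultures was pooled per day into 1 library, so no day had a replicate. Whether each calvaria library is 1 animal is not stated in the labels, so every p-value reflects only the spread among these libraries, which may be technical.

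A miRNA guides a silencing complex to messenger RNAs that pair with its seed, bases 2 to 8 from the 5′ end, and miRNAs with 1 seed can share targets. The miR-15/16 family is known for repressing cell cycle genes, among them the D and E cyclins and Chek1, and the survival gene Bcl2. In mouse heart, miR-195 is known for its part in the withdrawal of muscle cells from the cell cycle, and in mouse bone the Mir195a and Mir497 cluster is known from the endothelium of a capillary type linked to bone formation.

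All 6 members were found in the RefSeq miRNA sequences (GRCm38.p6). The guide arms are shown because their shared start and different ends define the family, and miR-195a-3p because it lacks that start. Capitals mark the seed, written 5′ to 3′.
mmu-miR-15a-5p: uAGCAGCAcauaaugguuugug
mmu-miR-15b-5p: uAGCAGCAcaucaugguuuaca
mmu-miR-16-5p: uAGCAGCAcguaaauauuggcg
mmu-miR-195a-5p: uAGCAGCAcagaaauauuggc
mmu-miR-497a-5p: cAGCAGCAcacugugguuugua
mmu-miR-195a-3p: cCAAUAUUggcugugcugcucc
The 5 guide arms had the same seed, AGCAGCA. miR-195a-5p matched miR-16-5p at 19 of 21 aligned bases and differed by G10A and U11G, counted from the 5′ end with the miR-16-5p base first. miR-15a-5p and miR-15b-5p matched at 18 of 22 bases. miR-195a-5p and miR-497a-5p, from neighbouring hairpins, matched at 12 of 21.

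The genes lie in 3 pairs (GENCODE M21, mm10). Mir497 lies at chr11:70234717-70234800 and Mir195a at chr11:70235042-70235135 on the plus strand, 241 bases apart. Mir195a overlaps no other annotated gene and Mir497 overlaps Mir497b on the opposite strand. Mir15a (chr14:61632027-61632110) and Mir16-1 (chr14:61631880-61631972) lie 54 bases apart on the minus strand, Mir15a in an intron of the noncoding gene Dleu2 and Mir16-1 overlapping an annotated Dleu2 exon. Mir15b (chr3:69009772-69009835) and Mir16-2 (chr3:69009902-69009996) lie 66 bases apart on the plus strand, in introns of Smc4, which encodes a condensin subunit. The hairpins of the chromosome 11 pair are shown because both of their arms enter the results, with the arms in capitals.
Mir195a: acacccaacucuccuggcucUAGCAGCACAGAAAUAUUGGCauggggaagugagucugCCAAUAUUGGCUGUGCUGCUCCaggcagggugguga
Mir497: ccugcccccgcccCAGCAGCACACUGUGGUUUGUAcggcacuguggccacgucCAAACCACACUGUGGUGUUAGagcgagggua
The mir-16-1 and mir-16-2 entries of miR-16-5p differed by 0.231% to 1.12% of their sum in each library, so the table does not separate the level of one hairpin from the other.

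Library totals were 1183011 to 2023036 counts in calvaria and 2742368 to 4031962 in MC3T3 cells. Levels are given in RPM, counts scaled to the library's miRNA total, and each library's interval is an exact 95% Poisson interval, which covers counting error only. In bulk samples fewer cells of a type and less RNA per cell cannot be told apart. The day 0 library stood apart: the share of miR-21a-5p in all counts was 11.2% to 20.1% at the later days, and 45.5% at day 0. TMM factors, the scaling used in the tests, were 1.01 to 1.19 at the later days, and 0.739 at day 0. Mesenchymal miRNAs (miR-199a, miR-214, miR-143 and miR-145a arms, 5 of 5 found) summed to 131924 to 145904 RPM in calvaria and 130003 to 187906 RPM in MC3T3 cells, so both labels had their defining markers. Calvaria also carried markers of other cell types, described beside the calvaria results.

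The chromosome 11 pair had the steepest course of the family in MC3T3 cells. miR-195a-5p stood at 23.6, 290.0, 442.1, 627.3 and 660.9 RPM at days 0, 6, 10, 17 and 24. It moved from rank 210 among all miRNAs at day 0 to ranks 121, 94, 79 and 77 at the later days. Its day 24 level was 28.0 times the day 0 level (counting interval 22.8 to 34.8), and its day 6 level was 12.3 times the day 0 level (9.95 to 15.4). With RPM divided by the TMM factors these ratios were 20.5 (16.7 to 25.5) and 7.64 (6.20 to 9.58). On either scale the fold change from day 0 to day 6 was larger than that from day 6 to day 24. The day 24 level was 2.28 times the day 6 level in RPM (2.10 to 2.47) and 2.68 times with TMM factors (2.47 to 2.91). Counted in RPM gained, the larger part of the rise came after day 6. Its passenger arm miR-195a-3p had 20.1, 132.2, 174.6, 191.9 and 257.8 RPM on the same days. The cluster partner miR-497a-5p had 13.9, 98.9, 117.9, 212.2 and 207.1 RPM. Both were lowest at day 0 and stood at 1.95 times (1.73 to 2.21) and 2.09 times (1.82 to 2.41) their day 6 level at day 24. Day 24 held 1.34 times the day 17 level of miR-195a-3p (1.21 to 1.49), beyond counting error. It held 0.976 times that of miR-497a-5p (0.876 to 1.09), within it. For miR-195a-5p the same ratio was 1.05 (0.991 to 1.12) in RPM and 1.13 (1.07 to 1.20) with TMM factors.

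The miR-15 and miR-16 members had another course, with their highest RPM at day 6. miR-15b-5p had 55.1, 240.9, 179.7, 128.4 and 93.0 RPM at days 0, 6, 10, 17 and 24. It was lower at each sampled day after day 6, and day 24 held 0.386 times the day 6 level (0.334 to 0.445). miR-16-5p, the most abundant member at days 0, 6, 10 and 17, had 246.0, 912.0, 620.8, 710.3 and 631.5 RPM. miR-15a-5p, the partner of mir-16-1, had 21.8, 56.1, 41.6, 50.0 and 38.3 RPM, with day 17 within the counting interval of day 6 (48.1 to 65.0). In both, day 24 held 0.692 times (miR-16-5p, 0.652 to 0.735) and 0.683 times (miR-15a-5p, 0.531 to 0.874) the day 6 level in RPM, with no steady order between. With TMM factors these were 0.814 (0.767 to 0.865) and 0.803 (0.625 to 1.03), so that of miR-15a-5p was then within counting error, and that of miR-15b-5p was 0.454 (0.392 to 0.524).

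**Figure D1:**
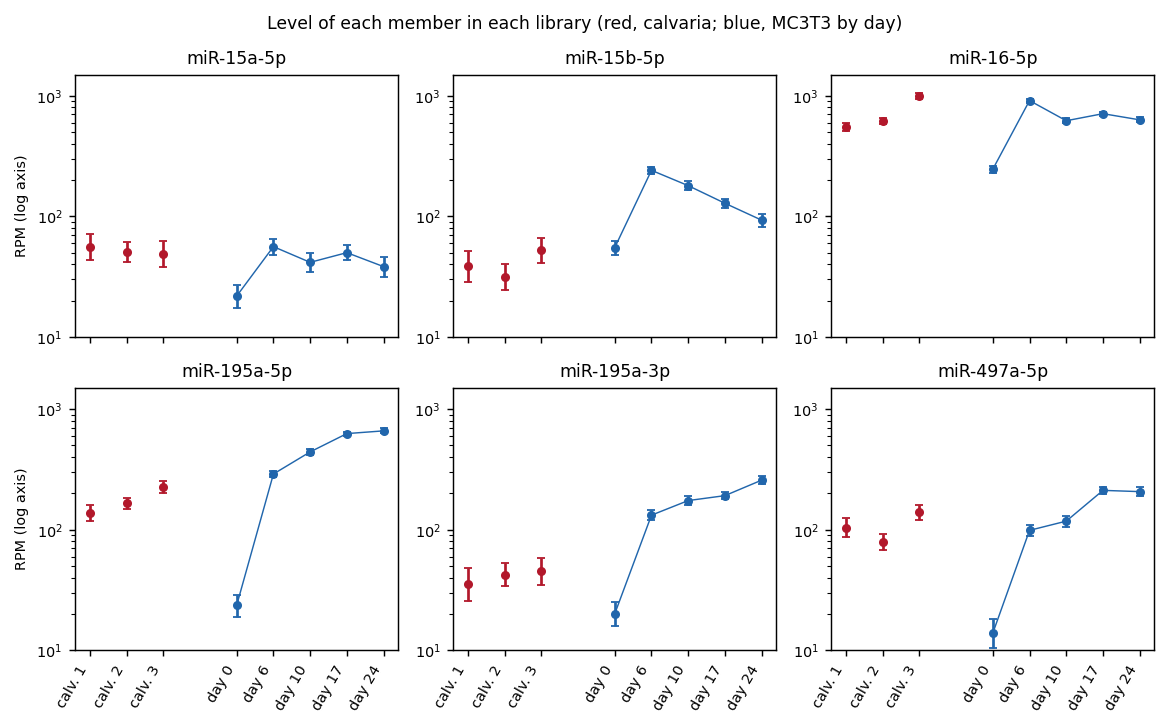
Level of each member in RPM (log axis) in the 3 calvaria libraries (red) and the MC3T3 libraries by day (blue, joined by a line), with exact 95% Poisson intervals. miR-195a-5p, miR-195a-3p and miR-497a-5p were higher at day 24 than at day 6, and miR-15b-5p was lower; day 0 was the lowest MC3T3 library for all 6 members.

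These courses were tested with fits over all miRNAs with at least 10 counts in at least 2 MC3T3 libraries. Each fit gives a log2 change with its SE and an edgeR quasi-likelihood p adjusted over all miRNAs tested, with a threshold of 0.05. When the 4 later libraries were set against day 0, miR-195a-5p rose by 3.90 ± 0.64 (adjusted p = 0.00624), miR-497a-5p by 2.99 ± 0.62 (0.0169) and miR-195a-3p by 2.71 ± 0.51 (0.0126). These were 3 of the 6 members, against 7.16% of 391 miRNAs called higher. The median change of all miRNAs tested was 0.08. miR-16-5p differed by 0.99 ± 0.28 (0.0511), miR-15b-5p by 0.98 ± 0.45 (0.165) and miR-15a-5p by 0.54 ± 0.32 (0.264), none past the threshold. The miR-16-5p call turned with the setting: with library totals in place of TMM factors it was 1.55 (adjusted p = 0.0208), and without day 6 it was 0.93 (0.0234). Over all miRNAs these settings called 74 of 391 and 55 of 379 higher, in place of 28 of 391. Without day 10, miR-195a-3p had an adjusted p of 0.0659 and miR-497a-5p of 0.0673, and only miR-195a-5p kept its call among the members. The changes of miR-195a-3p and miR-497a-5p were then still 2.67 and 3.04, and 7 of 383 miRNAs in all were called higher. The lone day 0 library was assumed to vary like the later ones. Marker sums also differed at that step: the 4 striated muscle arms summed to 197 to 213 RPM at days 6 to 24 and 573 RPM at day 0, of which miR-206-3p held 556.3 RPM. The other arms of that list went the opposite way. miR-1a-3p had 16.1 RPM at day 0 and 58.9 to 88.1 RPM later, and the scarcer miR-133a-3p and miR-133b-3p were also lowest at day 0. The higher day 0 sum was thus a difference of miR-206-3p alone. The part of these markers in the members' changes was not tested.

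A straight line over all 5 days called none of the members, against 2.3% of 391 miRNAs called in either direction. At an unadjusted p under 0.05 it held 3 members and 91 miRNAs in all. The DESeq2 Wald test called 3 members, with 19 of 391 miRNAs called higher and 14 lower. The change fitted over 24 days was 3.48 ± 1.06 for miR-195a-5p (adjusted p = 0.112), 3.04 ± 0.73 for miR-497a-5p (0.0895) and 2.57 ± 0.71 for miR-195a-3p (0.0942). The other members had 0.53 ± 0.52 (miR-16-5p, 0.571), 0.24 ± 0.44 (miR-15a-5p, 0.772) and −0.36 ± 0.73 (miR-15b-5p, 0.790). The spread in this fit is the departure from a line, so it holds the jump between day 0 and day 6. With day on a log2 scale the 3 chromosome 11 arms were called higher, at 4.51 ± 0.42 (miR-195a-5p, 0.000179), 3.57 ± 0.37 (miR-497a-5p, 0.000222) and 3.17 ± 0.38 (miR-195a-3p, 0.00044), against 9.97% of 391 miRNAs.

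Within days 6 to 24, with day 0 left out, 4 of the 6 members changed, and not in 1 direction. Over these 18 days miR-497a-5p rose by 1.35 ± 0.30 (adjusted p = 0.000703), miR-195a-5p by 1.30 ± 0.30 (0.00123) and miR-195a-3p by 1.03 ± 0.29 (0.00725). miR-15b-5p fell by 1.18 ± 0.29 (0.00238). Of 380 miRNAs tested, 7.11% were called higher and 7.89% lower, and the median change was −0.13. miR-16-5p changed by −0.20 ± 0.28 (0.671) and miR-15a-5p by −0.21 ± 0.35 (0.723), below their spread. This fit has 4 libraries and 2 residual degrees of freedom.

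The unequal courses came with a different make-up of the family. In calvaria the 5 guide arms summed to 891.8, 944.6 and 1468.0 RPM. The chromosome 11 guides miR-195a-5p and miR-497a-5p held 27.1%, 26.0% and 24.9% of these sums, miR-16-5p held 62.3%, 65.3% and 68.2%, and miR-15b-5p held 4.36%, 3.35% and 3.60%. In MC3T3 cells the sum was 360.4, 1597.8, 1402.1, 1728.1 and 1630.7 RPM at days 0, 6, 10, 17 and 24, lowest at day 0. Of that sum the chromosome 11 guides miR-195a-5p and miR-497a-5p held 10.4%, 24.3%, 39.9%, 48.6% and 53.2%. miR-16-5p held 68.3%, 57.1%, 44.3%, 41.1% and 38.7%. miR-15b-5p held 15.3%, 15.1%, 12.8%, 7.43% and 5.70%. The calvaria shares of miR-15b-5p lay below those of every culture, and the shares of the chromosome 11 guides lay nearest to the day 6 culture. By day 24 miR-195a-5p, with 40.5% of the sum, stood above miR-16-5p. All guide arms share the seed, so these shares describe which family member carries it, and were not tested.

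**Figure D2:**
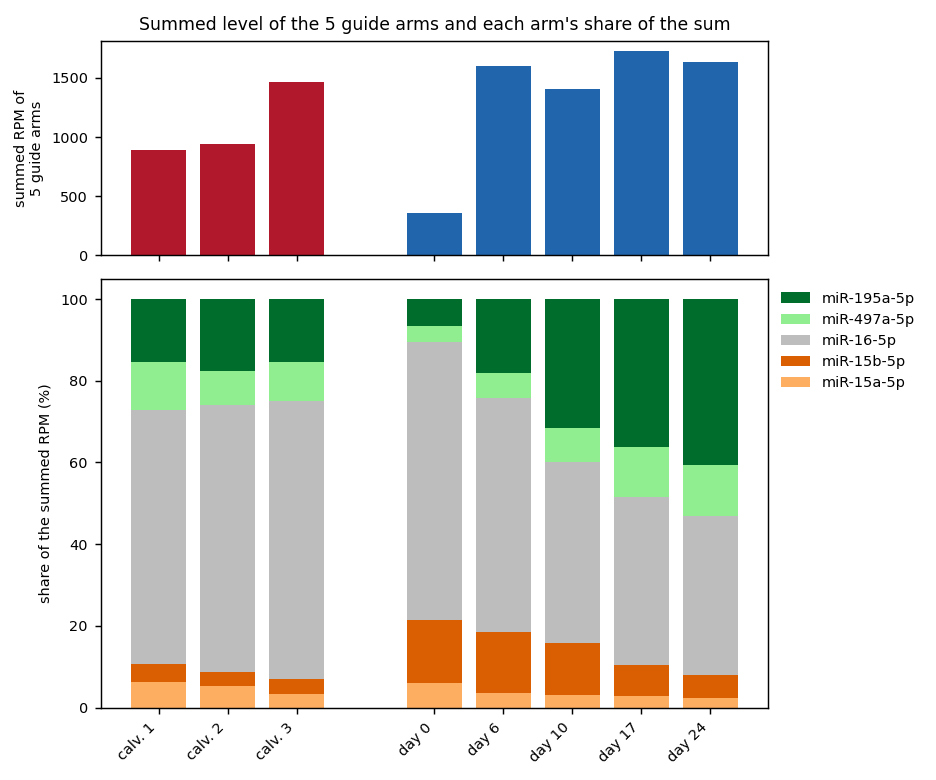
Upper plot: summed RPM of the 5 guide arms in each library (calvaria red, MC3T3 blue). Lower plot: share of each guide arm in that sum, in percent. The share of miR-195a-5p and miR-497a-5p together was 24.9% to 27.1% in calvaria, and 10.4% at day 0 and 53.2% at day 24 in MC3T3 cells.

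Calvaria libraries were set against the cultures to place the cell line beside bone tissue. Against all 5 MC3T3 libraries, miR-15b-5p and miR-195a-3p were lower in calvaria, and the other 4 members did not pass the threshold. miR-15b-5p had 38.9, 31.6 and 52.9 RPM in calvaria, a mean of 41.1 ± 10.8 RPM (SD, n = 3), against 55.1 to 240.9 RPM in MC3T3 cells (mean 139 RPM over the 5 days). The groups did not overlap, and the day 0 culture came nearest to calvaria. The fitted log2 difference was −1.89 ± 0.37 (adjusted p = 0.00107), and it stayed past the threshold in all 17 alternatives run. miR-195a-3p had 35.5, 42.5 and 45.4 RPM in calvaria, above the day 0 culture and below the later ones, and differed by −2.07 ± 0.59 (0.0105). Its call was lost without any 1 calvaria library, with adjusted p of 0.0740 without calvaria 1, 0.0608 without calvaria 2 and 0.0592 without calvaria 3. The differences in these fits were −1.81, −1.95 and −1.97. Their filter still asked for 3 libraries, so miRNAs found only in calvaria dropped out. It left 386 to 388 miRNAs to adjust over, in place of 471. These 2 of 6 members stood against 28.7% of 471 miRNAs called lower and 35.5% called higher, and the median difference over all miRNAs was 0.06.

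The other guide arms overlapped between calvaria and the 5 cultures. miR-195a-5p had 137.8, 165.6 and 225.1 RPM in calvaria, between the day 0 and day 6 cultures, and differed by −1.37 ± 0.72 (adjusted p = 0.12). Without day 0 the difference was −1.67 (0.00082). miR-497a-5p had 104.0, 79.6 and 140.0 RPM in calvaria (−0.43 ± 0.60, 0.552). miR-16-5p had 555.4, 616.9 and 1001 RPM in calvaria, against 246.0 to 912.0 RPM in MC3T3 cells (0.07 ± 0.30, 0.849). miR-15a-5p had 55.8, 50.9 and 49.1 RPM in calvaria, against 21.8 to 56.1 RPM (0.16 ± 0.24, 0.565). The signs of the small differences of miR-16-5p and miR-15a-5p turned with the scaling, to −0.34 and −0.28 with upper quartile factors. The MC3T3 spread in this comparison includes the change over the days.

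Against the cultures of days 17 and 24 alone, 4 of the 6 members were lower in calvaria. Of 476 miRNAs, 32.6% were called lower and 38.9% higher. With 71.4% called in either direction, the count of members called is no result about the family. miR-195a-3p differed by −2.75 ± 0.25 (adjusted p = 8.3e-05), miR-195a-5p by −2.16 ± 0.25 (0.000283), miR-15b-5p by −1.73 ± 0.29 (0.00157) and miR-497a-5p by −1.26 ± 0.27 (0.00513). None of these overlapped between the groups, but the share of all miRNAs without overlap was not counted. The highest calvaria values of miR-195a-5p and miR-497a-5p were 225.1 and 140.0 RPM, and their lower late values were 627.3 and 207.1 RPM. miR-16-5p differed by −0.18 ± 0.29 (0.602) and miR-15a-5p by −0.07 ± 0.21 (0.789). The median difference of all miRNAs was 0.13. All 4 calls held in each of 14 alternatives. These include the fits without day 17 or day 24, where the lone culture left was assumed to vary like the calvaria libraries. Both comparisons use the same calvaria libraries and share the day 17 and day 24 cultures.

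**Figure D3:**
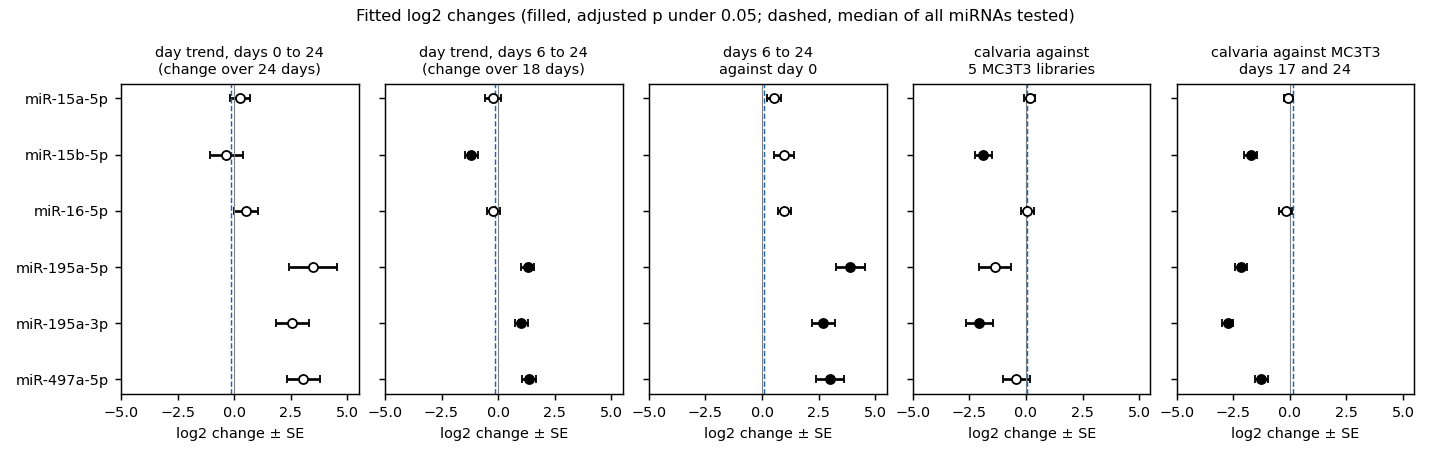
Fitted log2 change ± SE of each member in 5 fits: the line over days 0 to 24, the line over days 6 to 24, the later days against day 0, calvaria against the 5 MC3T3 libraries, and calvaria against MC3T3 days 17 and 24. Filled points had an adjusted p under 0.05, and the dashed line is the median of all miRNAs tested. miR-15a-5p and miR-16-5p had open points in every fit.

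Markers of other cell types moved with the calvaria comparison. The endothelial arms miR-126a-3p and miR-126a-5p summed to 9028, 10749 and 20323 RPM in calvaria 1, 2 and 3, against 6.20 to 19.0 RPM in MC3T3 cells. Calvaria 3, with the highest sum, also held more miR-16-5p, miR-195a-5p, miR-195a-3p, miR-497a-5p and miR-15b-5p than the other calvaria libraries, and less miR-15a-5p. Its miR-195a-3p and miR-15a-5p values lay within the counting intervals of the other calvaria libraries. Calvaria 3 also had the highest leukocyte, red blood cell, striated muscle and mesenchymal sums. Its cartilage sum was the lowest, at 55110 RPM against 98585 and 99359 RPM in calvaria 1 and 2. Its nervous system and epithelial sums lay between theirs. Calvaria 2 had a higher endothelial sum than calvaria 1, with less miR-497a-5p, miR-15b-5p and miR-15a-5p and more of the other members. Of these, the miR-15b-5p, miR-15a-5p and miR-195a-3p values of calvaria 2 lay within the counting intervals of calvaria 1. Leukocyte markers (4 of 4 found) summed to 151 to 177 RPM in calvaria and 0.95 to 4.37 RPM in MC3T3 cells. Red blood cell markers (4 of 4) summed to 161 to 287 RPM in calvaria and 37.7 to 107 RPM in MC3T3 cells, where miR-144-5p was at 0 in all 5 libraries. That culture sum was mostly miR-486a-5p, at 47.8 to 59.6 RPM in calvaria and 36.5 to 107 RPM in MC3T3 cells, while miR-451a, the defining red cell miRNA, had 85.4 to 170 RPM in calvaria and at most 0.99 RPM in MC3T3 cells. The cartilage arms miR-140-3p and miR-140-5p summed to 55110 to 99359 RPM in calvaria and 16831 to 24518 RPM in MC3T3 cells. Striated muscle (4 of 4), nervous system (3 of 3) and epithelial markers (6 of 6) summed to 281 to 640, 599 to 682 and 17.3 to 29.6 RPM in calvaria. In MC3T3 cells they summed to 197 to 573, 326 to 460 and 2.24 to 5.46 RPM. miR-124-3p and miR-429-3p were at 0 in all 5 culture libraries, and at most 0.99 and 3.38 RPM in calvaria. The nervous system sum was mostly miR-128-3p, at 533.01 to 608 RPM in calvaria and 271.66 to 445.69 RPM in MC3T3 cells. miR-9-5p had 57.48 to 92.31 and 14.4 to 53.97 RPM. The muscle arm miR-1a-3p had 202.18 to 381.14 and 16.12 to 88.06 RPM. miR-133a-3p and miR-133b-3p were also higher in calvaria. miR-206-3p overlapped, at 44.98 to 203.23 and 104.3 to 556.3 RPM. The part of other cell types in the members' levels was not tested.

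Ratios between members within a library do not depend on how the library is scaled. Of the 5 ratios compared, the 2 that involve miR-15b-5p passed the threshold. miR-15b-5p to miR-16-5p was 0.0700, 0.0513 and 0.0528 in calvaria, against 0.224, 0.264, 0.290, 0.181 and 0.147 at days 0, 6, 10, 17 and 24. No calvaria value reached the lowest culture, and the exact permutation test (two-sided, 56 assignments) gave p = 0.0179, the smallest it can give, or 0.0446 after adjustment over the 5 ratios. miR-15a-5p to miR-15b-5p was 1.43, 1.61 and 0.930 in calvaria, against 0.396, 0.233, 0.231, 0.389 and 0.412 in the cultures, with the same exact p-values. The balance of these 2 close relatives was thus 0.930 to 1.61 in bone and at most 0.412 in the cultures. Leaving out calvaria 1 or 3 gave an adjusted exact p of 0.119 for both ratios, and leaving out calvaria 2, 0.0794. Leaving out day 6, 10 or 24 gave 0.0714. In each case the unadjusted p was the smallest that the 21 or 35 remaining assignments allow. The 5 cultures are different days of 1 clone and not replicates of a condition. The 2 ratios share miR-15b-5p, so they are not independent results.

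The ratio of miR-195a-5p to miR-195a-3p, the arms of 1 hairpin, was 3.88, 3.90 and 4.96 in calvaria. In MC3T3 cells it was 1.18 (0.863 to 1.60), 2.19, 2.53, 3.27 and 2.56 at days 0, 6, 10, 17 and 24. The groups did not overlap, with means of 4.24 ± 0.617 in calvaria and 2.35 ± 0.762 in MC3T3 cells. The exact permutation test gave p = 0.0536, or 0.0893 adjusted, so the difference did not pass the threshold. At day 0 the interval included equal levels of both arms, and at the later days it did not. miR-195a-5p to miR-497a-5p was 1.33, 2.08 and 1.61 in calvaria, against 1.70, 2.93, 3.75, 2.96 and 3.19 in the cultures, where day 0 overlapped calvaria (exact p = 0.0714, adjusted 0.0893). miR-15a-5p to miR-16-5p averaged 0.0774 ± 0.0261 in calvaria and 0.0696 ± 0.0114 in MC3T3 cells (exact p = 0.75, adjusted 0.75). Small RNA ligation can favour some ends over others, so a ratio is compared between libraries and not read as a molar ratio.

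**Figure D4:**
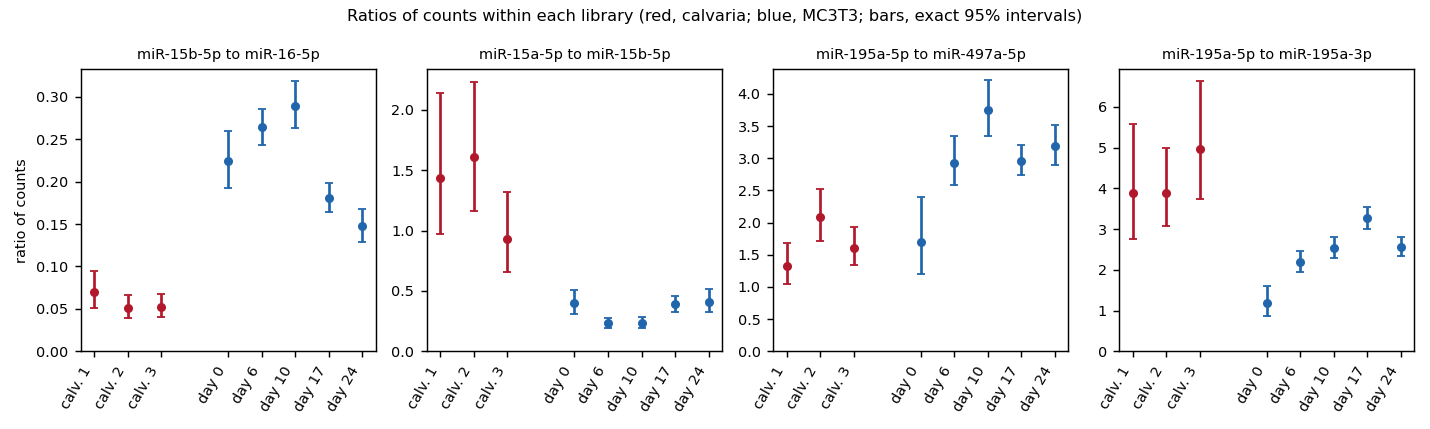
Ratios of counts of 4 pairs of members within each library (calvaria red, MC3T3 blue), with exact 95% binomial intervals. Calvaria values lie below all culture values for miR-15b-5p to miR-16-5p and above them for miR-15a-5p to miR-15b-5p and for miR-195a-5p to miR-195a-3p.

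Of the opposite arms of the other hairpins, miR-15a-3p, miR-16-2-3p and miR-497a-3p were scarce, and miR-15b-3p and miR-16-1-3p were not. In calvaria 1, 2 and 3 miR-15b-3p had 41, 100 and 51 counts, against 46, 64 and 71 of miR-15b-5p. The 5p arm was thus not the larger in every library. At day 0 the counts were 182 and 222, and at day 6 they were 296 and 760. miR-15b-3p, the partner of miR-15b-5p, had 34.7, 49.4 and 38.0 RPM in calvaria, against 45.1, 93.8, 62.2, 72.3 and 48.5 RPM at days 0, 6, 10, 17 and 24. It was also lower in calvaria, by a log2 difference of −0.83 ± 0.24 (adjusted p = 0.0124), where 28.7% of miRNAs were called lower. Its values overlapped between the groups, unlike those of miR-15b-5p, whose difference was −1.89. miR-16-1-3p had 176.7, 177.5 and 249.4 RPM in calvaria and 131.3 to 215.2 RPM in MC3T3 cells, and was not called in any of the 4 comparisons. The opposite arms, unlike miR-16-5p itself, differ between the hairpins, and miR-16-2-3p had 5.21 to 9.30 RPM in calvaria and 5.83 to 9.67 RPM in MC3T3 cells. miR-15a-3p had 3 to 9 counts per calvaria library and 1 to 23 per MC3T3 library, and miR-497a-3p had at most 3 and 7 counts.

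The AGCAGCA seed was found in 10 of 1679 mature miRNAs of the RefSeq sequences, and all 10 have an entry here. Beyond the 5 guide arms it is carried by miR-322-5p, miR-195b, miR-6342, miR-6353 and miR-6419. Of these, miR-195b had 0.5 counts, at day 17 only, and the last 3 had none in any library, so miR-322-5p was the other expressed carrier. It is shown with miR-503-5p, its X-linked cluster partner, whose seed differs in the last base, with the seeds in capitals.
mmu-miR-322-5p: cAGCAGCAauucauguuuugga
mmu-miR-503-5p: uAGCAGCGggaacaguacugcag
miR-322-5p had 343.2, 302.0 and 556.1 RPM in calvaria, against 77.1, 219.3, 165.2, 155.3 and 159.0 RPM at days 0, 6, 10, 17 and 24. It was higher in calvaria, with no overlap, by 1.20 ± 0.26 (adjusted p = 0.00191), the opposite direction to miR-15b-5p. In that comparison 35.5% of 471 miRNAs were called higher, and the share without overlap was not counted. miR-503-5p had 754.0, 914.5 and 529.3 RPM in calvaria and 72.2 to 316.3 RPM in MC3T3 cells, and was higher in calvaria by 1.94 ± 0.32 (0.000293). Neither passed the threshold in the day trend or against day 0.

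**Figure D5:**
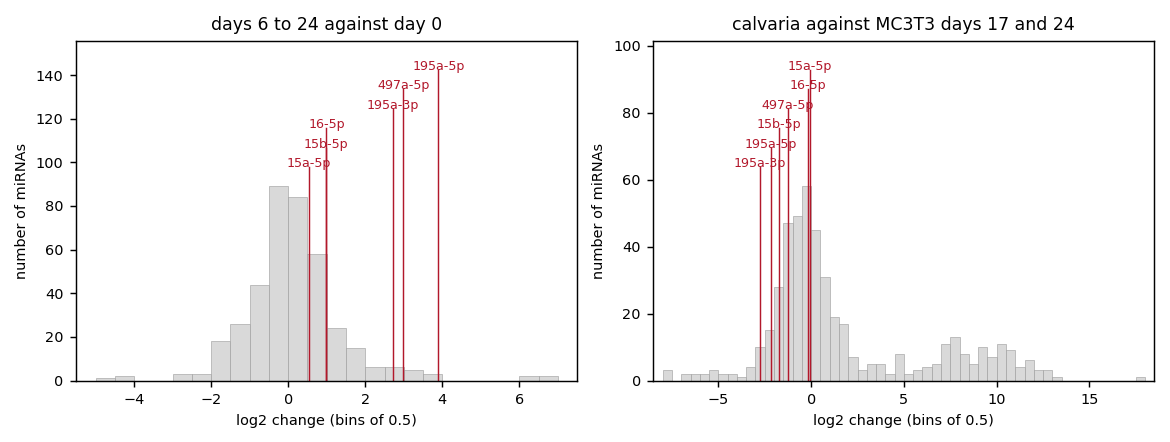
Number of miRNAs by log2 change in bins of 0.5, for days 6 to 24 against day 0 (left) and for calvaria against MC3T3 days 17 and 24 (right), with the 6 members as red lines. In the left plot miR-195a-5p, miR-497a-5p and miR-195a-3p lie at 3.90, 2.99 and 2.71, in the right-hand tail, and in the right plot 4 members lie at −1.26 or lower.

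Other miRNAs with a known role in the cell cycle were set beside the family. Of 16 miRNAs reported to slow entry into S phase (let-7, miR-34, miR-449a, miR-26, miR-322 and miR-503 members), 15 could be tested. None passed the threshold in the day trend (median log2 change 0.12, against −0.12 for all miRNAs) or against day 0 (0.10, against 0.08). By mean level the highest of them were let-7i-5p and let-7f-5p, at 0.03 ± 0.26 (adjusted p = 0.95) and −0.06 ± 0.22 (0.871) against day 0. In calvaria against MC3T3, 2 were higher, miR-322-5p and miR-503-5p, and 5 were lower, where 35.5% of all miRNAs tested were called higher and 28.7% lower. These counts are no result about the list. The lower ones were miR-34c-5p at −5.14 ± 0.24 (1.57e-08), miR-34b-5p at −5.30 ± 0.55 (8.61e-06), miR-34a-5p at −2.44 ± 0.25 (6.45e-06), let-7c-5p at −1.30 ± 0.27 (0.00173) and let-7b-5p at −1.26 ± 0.24 (0.000766). The miR-34 family is known as a target of p53, and let-7 as a repressor of Ras and Hmga2.

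Of 11 miRNAs reported to favour proliferation, all tested, miR-92a-3p of the miR-17-92 cluster fell at days 6 to 24 against day 0, by 1.53 ± 0.35 on the log2 scale (adjusted p = 0.0225), and none was higher. This 1 member stood against 7.42% of miRNAs called lower. None passed the threshold in the day trend, where the list's median was −0.60. In calvaria against MC3T3, miR-19a-3p at 0.83 ± 0.24 (0.0106) and miR-19b-3p at 0.81 ± 0.24 (0.0125), both of the miR-17-92 cluster, were higher. miR-222-3p at −2.32 ± 0.28 (2.85e-05) and miR-221-3p at −2.15 ± 0.20 (4.01e-06), known repressors of the cell cycle inhibitor Cdkn1b, were lower. These 2 of 11 in each direction stood against the same 35.5% and 28.7%. The list's median there was 0.35, against 0.06 for all miRNAs.

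Likeness of profiles was measured as the root mean square distance between log2(RPM + 1) values, each centred on its mean over the 8 libraries, for 360 miRNAs averaging at least 10 RPM. The profile nearest to miR-195a-5p was its cluster partner miR-497a-5p, at 0.513, and miR-195a-3p lay at 0.596. Of the other miRNAs, miR-125b-2-3p (0.541), miR-146b-5p (0.639) and miR-184-3p (0.647) came nearest, against a median of 1.52. miR-125b-2-3p, a passenger arm, had 185.1, 187.3 and 187.6 RPM in calvaria and 67.7, 292.5, 405.2, 594.4 and 543.7 RPM at days 0, 6, 10, 17 and 24. For miR-16-5p the nearest were miR-23b-3p (0.247), miR-152-3p (0.252) and miR-130a-3p (0.274), with miR-15a-5p at 0.316 and a median of 0.877. The guides with the closest sequence were not the closest in profile: miR-195a-5p and miR-16-5p lay 1.08 apart. All distances share the same 8 libraries and their scaling.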

How the data were processed

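Per the labels' protocols, NEBNext small RNA libraries were sequenced. The submitters' processing notes name Bowtie 0.12.7, cutadapt 0.9.5 and mm10, without roles. The sources used here give no quantifier or miRBase release. The authors deposited estimated counts (expected counts, some fractional) per mature arm and precursor, and RPM. Each deposited RPM value equalled the count over its library total within 0.0103 RPM. Nor do they say how reads matching several miRNAs were divided. Days follow the sample titles, and MC3T3 columns are named for days 3 lower. The 4 later ones carry an unexplained "veh" mark.

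Entries were summed per mature miRNA and rounded. edgeR 4.0.16 (R 4.3.3) quasi-likelihood tests used TMM factors and Benjamini-Hochberg adjustment over all miRNAs with at least 10 counts in at least 2 libraries (3 in calvaria against all MC3T3), with a threshold of 0.05. All 6 members passed these filters. Scripts were tested on simulated data. The text names the members, the other arms of their hairpins, miRNAs with their seed, miR-503-5p, listed miRNAs past the threshold or else the most abundant, and the 3 nearest profiles. DESeq2 1.42.0 and limma 3.58.1 served as alternatives, with other scalings, filters, a log2 day scale, unsummed entries and left-out libraries. The members and lists were chosen with earlier results of these data known.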

Additional observations from a re-analysis of the deposited data

How the results depend on the processing

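No call of a member in the 4 comparisons with all their libraries changed direction under any alternative. The change of miR-15b-5p, called lower in the day trend without day 0 only, was positive in other uncalled fits of that trend, among them 0.60 without day 24, 0.53 on the log2 day scale and 0.16 without day 6. In the day trend the count of members called was 0, and it was 3 with the DESeq2 Wald test, 1 without the filter on low counts (miR-497a-5p), 3 on the log2 day scale, and 0 to 4 with 1 library left out (4 without day 0). Over all miRNAs the Wald test called 19 higher and 14 lower of 391, and the fit without the filter 7 and 10 of 736. The log2 day scale called 39 and 49 of 391, and the fit without day 0 called 27 and 30 of 380. For days 6 to 24 against day 0 the count of members was 3, and 1 to 4 with 1 library left out (1 without day 10, 4 without day 6). miR-16-5p was called there in 8 of 13 alternatives. Over all miRNAs the fit without day 10 called 7 higher and 11 lower of 383. The fit without day 6 called 55 and 54 of 379, and that with all libraries 28 and 29 of 391. In calvaria against MC3T3 without 1 calvaria library, 77 to 81 miRNAs were called higher and 86 to 92 lower, in place of 167 and 135. The count of members there was 2, 3 without the filter (adding miR-195a-5p at −1.50, adjusted p = 0.0363), 1 with limma at a pseudocount of 1 or of 10, and 1 to 3 with 1 library left out (1 without any 1 calvaria library, 3 without day 0). Against days 17 and 24 it was 4 throughout. Of the 5 ratios 2 passed, and 0 to 3 did with 1 library left out, where 21 or 35 assignments remained. Recomputed RPM gave the same levels. Day ratios divided by TMM factors were chosen after seeing the data.

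Scaling moved the median of all miRNAs: against day 0 it was 0.08 with TMM factors and 0.62 with library totals, where 74 were called higher and 11 lower in place of 28 and 29, and miR-195a-5p stood at 4.42. In the day trend the median was −0.12 with TMM factors and 0.13 with library totals, and the calls over all miRNAs, 4 higher and 5 lower, became 0 with library totals and 6 and 5 with size factors from DESeq2. Its Wald test, which changes the test as well, called 19 higher and 14 lower. In calvaria against MC3T3 the median was 0.06 with TMM factors and 0.25 with library totals. With upper quartile factors it was −0.37, and 142 were called higher and 192 lower in place of 167 and 135. Against days 17 and 24 it was 0.13, 0.42 and −0.20. No paired analysis was possible because each day has 1 library and the labels give calvaria and MC3T3 no shared replicate numbers.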
